A study of Homo sapiens with 12 samples.

Results

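Voltage-gated and ligand-gated ion channel genes were picked by symbol from the table of all genes. The rule took symbols of potassium channels (KCN), calcium channels (CACN, pore and auxiliary subunits), sodium channels (SCN), GABA-A receptors (GABR), ionotropic glutamate receptors (GRIA, GRIK, GRIN) and nicotinic acetylcholine receptors (CHRN). It found 181 of 22170 genes. Of these, 65 were expressed, defined as at least 10 normalized read counts in at least 3 of the 12 libraries, and 116 were silent by the same rule. Thus 35.9% of the channel genes were expressed, against 64.0% of all genes. The normalized read count is the number of reads on a gene divided by a size factor of its library. It is not divided by gene length, so levels are compared between libraries and never between genes.

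The cells were SKBR3, an established HER2-amplified breast cancer line labelled wild type, in 4 groups of 3 libraries. The combination group had GSK126 at 5 µM for 7 days with lapatinib at 100 nM over the last 24 h. The GSK126 group had the same GSK126 exposure without lapatinib, and the lapatinib group had DMSO with the same 24 h of lapatinib. The DMSO group had the vehicle throughout. GSK126 inhibits EZH2, the enzyme that puts a repressive methyl mark on histone H3, and lapatinib inhibits the kinases of HER2 and of the EGF receptor. All groups come from 1 line. Nothing in the labels tells whether replicate libraries were grown as separate cultures, so p-values measure the spread between these libraries, which may be technical.

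Potassium channels set the resting potential of a cell and bring it back there after excitation. Voltage-gated sodium and calcium channels open on depolarization, and calcium entering the cell is also a signal for secretion, growth and transcription. GABA-A, glutamate and nicotinic receptors are ion channels opened by a transmitter. Most of these families are best known from neurons and muscle. Epithelial cells use some of them, mainly potassium channels, for ion and fluid transport and volume control.

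Libraries held 17.7 to 30.3 M reads on genes. Luminal breast markers were high in all of them: 9 of 10 passed the filter, and the list summed to at least 509500 normalized counts in each library. Combination library 1 was the shallowest, yet 21669 genes were seen in it, compared with 15059 to 17338 genes elsewhere. Among the 65 expressed channel genes, 41 were higher in it than in both other combination libraries. Added spike-in transcripts separated the libraries into 3 compositions. The first held all DMSO and lapatinib libraries and combination libraries 2 and 3, the second joined combination library 1 with GSK126 libraries 2 and 3, and the third was GSK126 library 1 by itself. The GSK126 and DMSO groups therefore share no composition, and the drug and the composition cannot be told apart in that comparison.

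Potassium channel genes made up 91 of the 181, and 32 of them were expressed. By family, 11 of 40 voltage-gated potassium pore genes, 8 of 14 K2P (tandem pore domain) genes, 3 of 14 inward rectifier genes and 3 of 8 calcium- or sodium-activated potassium genes were expressed. So were 7 of 15 potassium channel auxiliary genes. Among the calcium channels, 5 of 10 pore genes and 7 of 16 auxiliary genes were expressed. Among the sodium channels, 2 of 10 pore genes and 3 of 4 beta subunit genes were. The ligand-gated families had 6 of 19 GABA-A genes, 4 of 16 glutamate receptor genes and 6 of 15 nicotinic genes expressed.

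**Figure D1:**
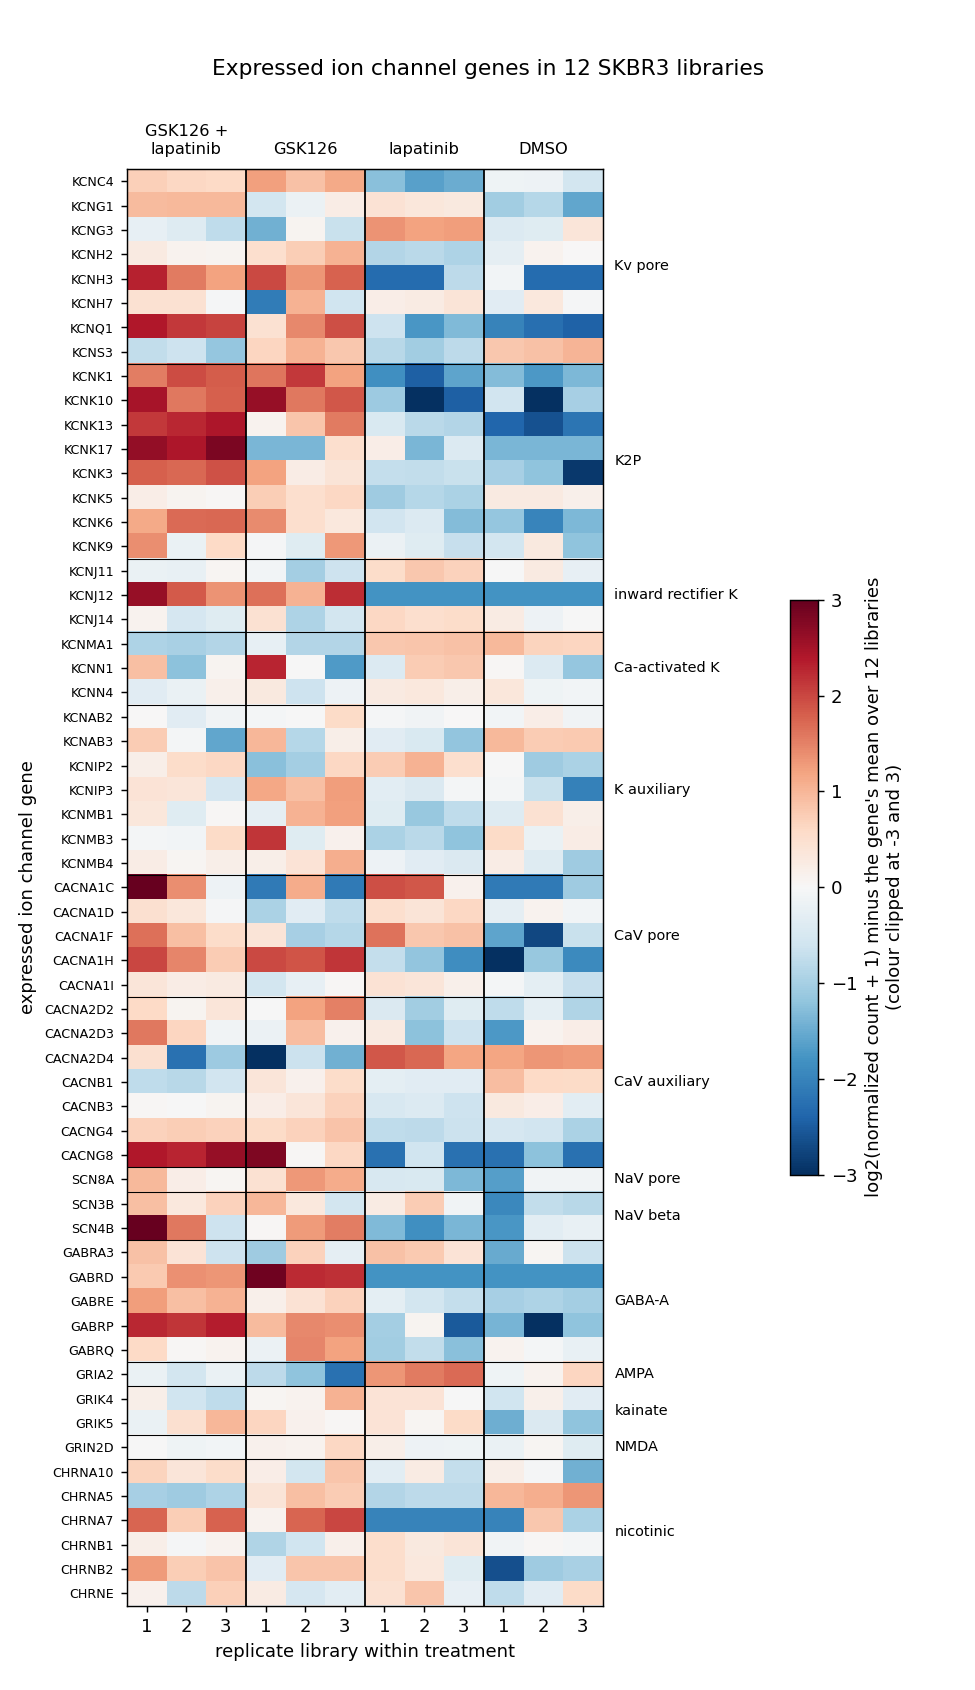
Expressed channel genes by library. Rows are expressed genes grouped by family (a few of the 65 are not drawn), columns are the 12 libraries grouped as GSK126 + lapatinib, GSK126, lapatinib and DMSO, and colour is the log2 difference from the gene's mean over the libraries. KCNK1, KCNK3, KCNK6, KCNK10 and KCNK13 were high in all 6 libraries with GSK126, and CHRNA5 and KCNS3 were low in all 6 libraries with lapatinib.

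With GSK126, 25 of the 65 expressed channel genes rose and 4 fell against DMSO at an adjusted p under 0.05 (limma on log2(normalized count + 1), adjusted over 14179 genes). That is 38.5% and 6.15% of the expressed channel genes, against a background of 10.7% higher and 3.93% lower over all genes tested. The median log2 difference was 0.79 over the channel genes and -0.04 over all genes. Of the 65, 19 were under 10 in every DMSO library, so they could enter the test only through another group, and 11 of these 19 rose. Among the 46 at 10 or more in a DMSO library, 14 rose and 4 fell, which is 30.4% and 8.7% of them. The background over all genes with that DMSO level was 8.62% higher and 4.17% lower. The median log2 difference was 0.47 over these 46 and -0.07 over all genes with that DMSO level. With the spike-in composition as a term in the fit, 7 calls remained: KCNK1, KCNK13, KCNQ1, CACNG4 and GABRE higher, and KCNMA1 and CACNA2D4 lower. Over all genes 446 were called in that fit. It cannot part the drug from the composition. GSK126 library 1 was fitted by a term of its own. The term for GSK126 libraries 2 and 3 rested on combination library 1 against combination libraries 2 and 3. With only the GSK126 and DMSO libraries in the fit, 17 calls remained, 15 higher and 2 lower, and calls over all genes went from 2069 to 869. Without GSK126 library 1, 27 rose and 5 fell, and calls over all genes went up from 2069 to 3231. In RNA from whole cultures, a change in the number of cells that express a gene and a change in RNA per cell cannot be told apart.

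K2P channels are open at rest and carry the background potassium current. With GSK126 against DMSO, 5 of 8 expressed genes rose, namely KCNK1, KCNK3, KCNK6, KCNK10 and KCNK13, and none fell. Over all genes tested, 10.7% were called higher and 3.93% lower. Of the 8, KCNK10, KCNK13 and KCNK17 were under 10 in every DMSO library and passed the filter only through treated groups, which favours a call. KCNK1 encodes the weakly rectifying TWIK channel and KCNK6 a close relative. KCNK3 encodes the acid-sensitive TASK channel, KCNK10 a mechanically gated channel of the TREK group, and KCNK13 the halothane-inhibited THIK channel. The 250 bases before the RefSeq start site are shown for these 5 genes, because they moved together and differ widely in CG content at that site. Each is written 5′ to 3′ on the gene's own strand, from RefSeq GRCh38.p14, with capitals marking every CG dinucleotide, which reads the same on both strands.
KCNK1: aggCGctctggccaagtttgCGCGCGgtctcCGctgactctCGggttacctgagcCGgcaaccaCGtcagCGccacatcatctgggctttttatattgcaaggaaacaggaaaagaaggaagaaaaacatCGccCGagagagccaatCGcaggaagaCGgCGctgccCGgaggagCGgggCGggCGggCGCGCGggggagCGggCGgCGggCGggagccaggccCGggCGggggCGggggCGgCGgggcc
KCNK3: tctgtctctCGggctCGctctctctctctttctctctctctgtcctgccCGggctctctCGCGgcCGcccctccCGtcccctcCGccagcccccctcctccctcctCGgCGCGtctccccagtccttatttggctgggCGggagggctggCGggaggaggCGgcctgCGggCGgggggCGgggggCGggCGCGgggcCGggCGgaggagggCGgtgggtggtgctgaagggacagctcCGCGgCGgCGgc
KCNK6: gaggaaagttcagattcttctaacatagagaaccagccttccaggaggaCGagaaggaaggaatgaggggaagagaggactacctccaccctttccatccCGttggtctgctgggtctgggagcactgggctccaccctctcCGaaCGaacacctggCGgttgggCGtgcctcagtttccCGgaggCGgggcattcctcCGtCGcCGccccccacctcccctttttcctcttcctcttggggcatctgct
KCNK10: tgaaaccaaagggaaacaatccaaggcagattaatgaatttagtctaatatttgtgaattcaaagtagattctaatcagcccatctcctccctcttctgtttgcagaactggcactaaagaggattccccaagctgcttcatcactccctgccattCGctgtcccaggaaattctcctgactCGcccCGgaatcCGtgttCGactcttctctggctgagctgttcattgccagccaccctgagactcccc
KCNK13: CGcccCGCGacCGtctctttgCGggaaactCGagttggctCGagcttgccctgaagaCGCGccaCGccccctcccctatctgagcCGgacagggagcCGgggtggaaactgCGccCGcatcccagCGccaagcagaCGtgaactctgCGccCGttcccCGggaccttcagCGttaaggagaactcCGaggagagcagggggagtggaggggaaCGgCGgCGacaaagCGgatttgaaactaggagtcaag
They lie at chr1:233613856-233614105 (+ strand) for KCNK1, chr2:26692472-26692721 (+) for KCNK3, chr19:38319595-38319844 (+) for KCNK6, chr14:88326913-88327162 (- strand) for KCNK10 and chr14:90061744-90061993 (+) for KCNK13. The CG count was 30, 27, 11, 5 and 25 in that order. Over all 35116 promoters of the same length in the RefSeq table, 93.9% held a CG, the median count was 11, the quartiles were 3 and 23, and 21.6% held 25 or more. KCNK1, KCNK3 and KCNK13 thus lay above the upper quartile, KCNK6 at the median and KCNK10 between the lower quartile and the median.

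KCNK1 had 233, 316 and 282 normalized counts in the combination libraries, 245, 351 and 185 in the GSK126 libraries, 21.5, 13.8 and 26.3 in the lapatinib libraries and 31.9, 23.7 and 30.9 in the DMSO libraries. All 6 libraries with GSK126 were far above all 6 without it, and the combination libraries overlapped the GSK126 libraries. Its log2 difference was 3.09 ± 0.30 (SE) with GSK126 against DMSO (limma, adjusted p = 1.68e-05), the smallest adjusted p of the channel genes there. It was 3.72 ± 0.30 with both drugs against lapatinib (limma, adjusted p = 2.49e-06), a comparison that shares no library with the first.

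KCNK13 had 104, 115 and 129 normalized counts in the combination libraries, 25.2, 42.2 and 70.7 with GSK126, 16.6, 12.8 and 12.2 with lapatinib, and 3.68, 2.96 and 4.27 with DMSO. The 4 groups did not overlap and stood in that order. It rose with each drug against DMSO, by 3.23 ± 0.38 log2 units for GSK126 (limma, adjusted p = 7.72e-05) and by 1.68 ± 0.38 for lapatinib (limma, adjusted p = 0.00582), and the 2 comparisons share the DMSO libraries. Both drugs against GSK126 gave 1.43 ± 0.38 (limma, adjusted p = 0.0205), a call lost without any 1 of the combination libraries (adjusted p 0.0534 to 0.0758).

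KCNK3 had 134, 127 and 145 normalized counts with both drugs, 88.7, 44.5 and 49.5 with GSK126, 22.5, 22.4 and 23.5 with lapatinib, and 18.4, 15.8 and 4.27 with DMSO. KCNK6 had 75.9, 112 and 114 with both drugs, 92.0, 48.3 and 42.4 with GSK126, 22.5, 25.5 and 13.1 with lapatinib, and 14.7, 7.91 and 12.8 with DMSO. For both genes every library with GSK126 exceeded every library without it. The log2 difference of GSK126 minus DMSO was 2.30 ± 0.44 for KCNK3 (limma, adjusted p = 0.00332) and 2.23 ± 0.39 for KCNK6 (limma, adjusted p = 0.0016). KCNK10 had 57.2, 30.7 and 35.7 normalized counts with both drugs, 63.5, 30.7 and 37.1 with GSK126, 3.92, 0 and 0.938 with lapatinib, and 6.13, 0 and 4.27 with DMSO. It was near 0 without GSK126 and at 30 or more in all 6 libraries with it, a log2 difference of 3.67 ± 0.76 for GSK126 minus DMSO (limma, adjusted p = 0.00545).

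The remaining 3 expressed K2P genes were not called with GSK126 against DMSO, and KCNK5 and KCNK17 were called higher with both drugs than with lapatinib. KCNK5, which encodes an alkaline-activated TASK channel, had 386, 354 and 346 normalized counts with both drugs, 558, 479 and 513 with GSK126, 161, 185 and 174 with lapatinib, and 402, 404 and 370 with DMSO. Its GSK126 libraries all lay above its DMSO libraries, with a log2 difference of 0.39 that missed the threshold (limma, adjusted p = 0.0886). It fell with lapatinib against DMSO, with a log2 difference of -1.17 ± 0.14 (limma, adjusted p = 7.6e-05). It was higher with both drugs than with lapatinib by 1.06 ± 0.14 (limma, adjusted p = 0.000168). The lapatinib libraries were the lowest of all, and the combination libraries lay below the GSK126 libraries. KCNK17, an alkaline-activated channel of the TALK group, was seen almost only with both drugs: 14.9, 12.9 and 17.4 normalized counts, against 0, 0 and 2.65 with GSK126, 1.96, 0 and 0.938 with lapatinib and 0 in every DMSO library. That was at least 13.8-fold higher than DMSO, set against a floor of 3 reads over the DMSO group. The ratio to GSK126, where the group held 3 reads, was 16.7 (95% counting interval 5.36 to 83.9). KCNK17 reached 10 only in the 3 combination libraries, so it passed the filter through the group tested, which favours a call. Without any 1 of them it did not pass. KCNK9 was not called in any comparison.

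**Figure D2:**
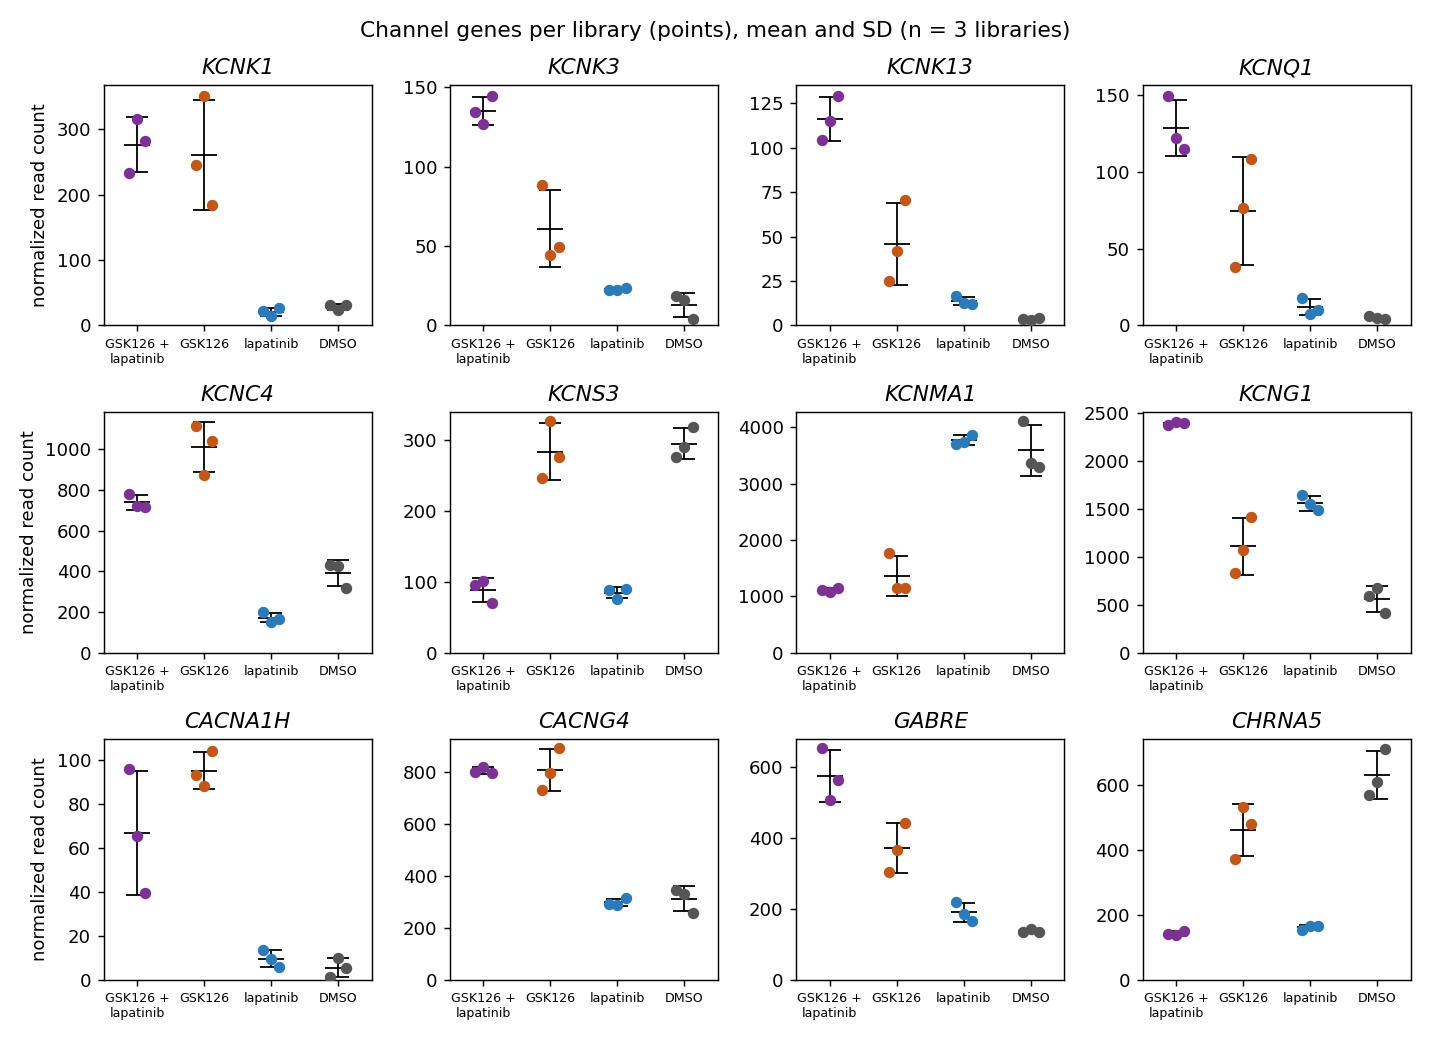
Selected channel genes by library. Each panel plots the normalized read count (linear axis from 0) of 1 gene in the GSK126 + lapatinib, GSK126, lapatinib and DMSO groups, with points for libraries and bars for the mean and SD of 3 libraries. KCNK1 and CACNG4 split into libraries with and without GSK126, KCNS3 and CHRNA5 into libraries with and without lapatinib, and KCNK13 and KCNG1 are highest with both drugs.

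Voltage-gated potassium channels open on depolarization and end it. With GSK126, 6 of 11 expressed pore genes rose against DMSO (among them KCNQ1, KCNC4, KCNG1, KCNH2 and KCNH3) and none fell. Over all genes tested, 10.7% were called higher and 3.93% lower there. With lapatinib, 3 rose (among them KCNG1 and KCNG3) and 4 fell (among them KCNS3, KCNC4 and KCNH2), where 13.7% of all genes tested were called higher and 14.3% lower. KCNQ1 encodes the slow delayed rectifier of the heart, which epithelia also use. It had 149, 122 and 115 normalized counts with both drugs, 38.3, 76.7 and 109 with GSK126, 17.6, 7.45 and 10.3 with lapatinib, and 6.13, 4.94 and 4.27 with DMSO. The libraries with GSK126 did not overlap those without it, and the log2 difference to DMSO was 3.52 ± 0.41 (limma, adjusted p = 7.84e-05).

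KCNC4 and KCNH2 were called in opposite directions by the drugs, in comparisons that share the DMSO libraries. KCNC4, a fast-inactivating channel of the Shaw type, had 779, 721 and 717 normalized counts with both drugs, 1117, 875 and 1040 with GSK126, 198, 151 and 167 with lapatinib, and 433, 425 and 320 with DMSO. Its groups did not overlap. GSK126 minus DMSO was 1.37 ± 0.17 log2 units (limma, adjusted p = 0.000121), and lapatinib minus DMSO was -1.18 ± 0.17 (limma, adjusted p = 0.000272). KCNH2, the hERG channel of cardiac repolarization, had 285, 254 and 252 with both drugs, 336, 396 and 486 with GSK126, 128, 134 and 124 with lapatinib, and 197, 255 and 238 with DMSO. The combination libraries lay within or just above the DMSO range. The difference to DMSO was 0.81 ± 0.18 with GSK126 (limma, adjusted p = 0.00808) and -0.83 ± 0.18 with lapatinib (limma, adjusted p = 0.0045).

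KCNG1, KCNG3 and KCNS3 encode modifier subunits, which form no channel alone and join Kv pore subunits of the Shab type. KCNG1 had 2367, 2402 and 2393 normalized counts with both drugs, 828, 1074 and 1417 with GSK126, 1640, 1546 and 1481 with lapatinib, and 591, 670 and 413 with DMSO. The 4 groups did not overlap and the combination was highest. GSK126 minus DMSO was 0.98 ± 0.20 (limma, adjusted p = 0.00557), lapatinib minus DMSO 1.51 ± 0.20 (limma, adjusted p = 0.000169) and both drugs minus GSK126 1.14 ± 0.20 (limma, adjusted p = 0.00202). KCNS3 had 94.6, 101 and 69.4 with both drugs, 246, 326 and 276 with GSK126, 88.1, 75.6 and 90.1 with lapatinib, and 276, 290 and 318 with DMSO. It was low in all 6 lapatinib-treated libraries, with lapatinib minus DMSO at -1.79 ± 0.20 (limma, adjusted p = 3.58e-05) and both drugs minus GSK126 at -1.68 ± 0.20 (limma, adjusted p = 9.61e-05). KCNG3 had 53.5, 48.5 and 37.6 with both drugs, 23.0, 68.3 and 39.8 with GSK126, 164, 149 and 155 with lapatinib, and 47.8, 49.4 and 82.2 with DMSO. Only the libraries with lapatinib alone stood apart. Lapatinib minus DMSO was 1.41 ± 0.36 (limma, adjusted p = 0.0107), and both drugs minus lapatinib was -1.74 ± 0.36 (limma, adjusted p = 0.00386).

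KCNH3, a brain channel of the Elk type, averaged 15.3 ± 3.59 normalized counts with GSK126 (SD, n = 3) and 1.23 ± 2.12 with DMSO, where 3 reads were seen in all. The read ratio was 13.8 (95% counting interval 4.45 to 69.0; limma, adjusted p = 0.0104). KCNH7 was called nowhere.

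Among the 3 expressed calcium-activated potassium channel genes, KCNMA1 fell with GSK126. It encodes the large-conductance BK channel, opened by voltage and calcium together. The 250 bases before its start at chr10:77637809-77638058 (- strand, RefSeq GRCh38.p14) are shown as well, with CG in capitals.
KCNMA1: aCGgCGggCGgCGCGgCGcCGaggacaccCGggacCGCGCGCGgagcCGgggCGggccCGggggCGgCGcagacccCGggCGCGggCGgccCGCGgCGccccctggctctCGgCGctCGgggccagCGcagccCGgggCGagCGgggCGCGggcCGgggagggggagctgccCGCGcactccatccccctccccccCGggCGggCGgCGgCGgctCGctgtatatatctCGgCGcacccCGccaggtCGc
This stretch held 46 CG, a count reached by 0.413% of the promoters in the table. Channel genes called in either direction with GSK126 had high and low counts. Among those higher, SCN8A had 45, KCNIP3 44 and KCNK10 5, and among those lower, CACNA1D had 41 and GRIA2 6. CACNA1C, not called with GSK126, had 51. Whether CG content goes with direction was not tested. KCNMA1 had 1105, 1077 and 1141 normalized counts with both drugs, 1768, 1150 and 1148 with GSK126, 3713, 3739 and 3871 with lapatinib, and 4116, 3361 and 3298 with DMSO. All 6 libraries with GSK126 were below all 6 without it, and GSK126 library 1 was the highest of the 6. The log2 difference was -1.43 ± 0.17 with GSK126 against DMSO (limma, adjusted p = 7.47e-05) and -1.77 ± 0.17 with both drugs against lapatinib (limma, adjusted p = 9.45e-06). KCNN4, the intermediate-conductance channel, was called in no comparison, at 5055 ± 899 with both drugs, 5023 ± 1571 with GSK126, 6532 ± 299 with lapatinib and 5669 ± 1045 with DMSO (SD, n = 3). KCNN1 was not called either.

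Of the 7 expressed potassium auxiliary genes, KCNIP3 rose with GSK126 and KCNIP2 with lapatinib. Both encode calcium-binding proteins that join Kv channels of the Shal type. KCNIP3 averaged 73.3 ± 9.43 with GSK126 and 20.0 ± 12.2 with DMSO (SD, n = 3; limma, adjusted p = 0.00824). KCNIP2 averaged 34.6 ± 6.69 with lapatinib and 12.7 ± 5.99 with DMSO (SD, n = 3; limma, adjusted p = 0.0452), a call lost without any 1 lapatinib library or DMSO library 2 or 3 (adjusted p 0.0809 to 0.138). The BK beta subunit genes KCNMB1, KCNMB3 and KCNMB4 were called in no comparison, nor was KCNAB2 or KCNAB3. KCNMB3 had 474 normalized counts in GSK126 library 1 and 83.6 and 118 in the other GSK126 libraries.

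The inward rectifiers hold the resting potential near that of potassium. KCNJ12, a strong inward rectifier of muscle and brain, had 19.9, 11.3 and 7.71 normalized counts with both drugs, 9.86, 6.13 and 15.03 with GSK126, and 0 in every lapatinib and DMSO library. GSK126 was at least 9.36-fold higher than DMSO against a floor of 3 reads over the group (limma, adjusted p = 0.00343). KCNJ12 has a near-identical copy in the genome, so its reads may be shared. It reached 10 only in combination libraries 1 and 2 and GSK126 library 3. It thus passed the filter only through libraries with GSK126, which favours a call, and did not pass without any 1 of them. KCNJ11, the pore of the ATP-sensitive channel, averaged 606 ± 54.8 with lapatinib and 379 ± 68.7 with DMSO (SD, n = 3; limma, adjusted p = 0.0366). That call was lost without any 1 of the lapatinib libraries or DMSO library 1 or 3 (adjusted p 0.0656 to 0.134). KCNJ14 was called nowhere.

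Calcium channel pore genes moved in different comparisons. CACNA1H, a T-type channel opened by small depolarizations, had 95.8, 65.5 and 39.5 normalized counts with both drugs, 93.1, 88.2 and 104 with GSK126, 13.7, 9.58 and 5.63 with lapatinib, and 1.23, 9.88 and 5.34 with DMSO. The libraries with GSK126 did not overlap those without it, a log2 difference of 4.16 ± 0.54 against DMSO (limma, adjusted p = 0.000183). The other 4 expressed pore genes rose with lapatinib. CACNA1F, the L-type channel of the retina, had 19.9, 11.3 and 8.67 with both drugs, 7.67, 2.30 and 2.65 with GSK126, 19.6, 10.6 and 11.3 with lapatinib, and 1.23, 0 and 3.20 with DMSO. It was low yet apart from DMSO in all 6 lapatinib-treated libraries, with lapatinib minus DMSO at 2.77 ± 0.66 (limma, adjusted p = 0.00813).

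CACNA1I, another T-type channel, averaged 476 ± 45.8 with lapatinib and 305 ± 65.5 with DMSO (SD, n = 3; limma, adjusted p = 0.0243; 0.0783 to 0.105 without DMSO library 3 or lapatinib library 1 or 2). CACNA1D, an L-type channel, averaged 920 ± 162 with both drugs, 478 ± 108 with GSK126, 1075 ± 89.8 with lapatinib and 722 ± 95.8 with DMSO (SD, n = 3). It fell with GSK126 by 0.61 on the log2 scale (limma, adjusted p = 0.048) and rose with lapatinib by 0.58 (limma, adjusted p = 0.0376). Both calls were near the threshold. Without DMSO library 3 the adjusted p was 0.121 with GSK126 and 0.0883 with lapatinib, and it reached 0.154 without DMSO library 2 and 0.133 without DMSO library 1. Both drugs minus GSK126 was 0.95 ± 0.19 (limma, adjusted p = 0.00428) and passed the threshold in all 24 alternatives tried. CACNA1C, the L-type channel of heart and vessels, was low: 11.4 ± 6.67 with lapatinib and 0.356 ± 0.616 with DMSO (SD, n = 3), where 1 read was seen. The read ratio was 31.1 (95% counting interval 5.21 to 1263; limma, adjusted p = 0.0455), and the call was lost without any 1 library of either group (adjusted p 0.0508 to 0.147).

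CACNG4 and CACNG8 are listed with the calcium channels but are best known as TARP proteins, which carry AMPA receptors to the cell surface. CACNG4 had 800, 818 and 795 normalized counts with both drugs, 730, 797 and 893 with GSK126, 292, 286 and 313 with lapatinib, and 346, 331 and 257 with DMSO. GSK126 split the libraries into 6 high and 6 low ones. GSK126 minus DMSO was 1.38 ± 0.15 (limma, adjusted p = 4.7e-05) and both drugs minus lapatinib 1.43 ± 0.15 (limma, adjusted p = 2.29e-05). CACNG8 averaged 13.9 ± 15.5 with GSK126 and 0.329 ± 0.571 with DMSO (SD, n = 3), on 41 and 1 reads, a ratio of 33.9 (95% counting interval 5.75 to 1369; limma, adjusted p = 0.0204). GSK126 library 1 held 31.8 of these normalized counts against 3.83 and 6.19 in the others, and without it the adjusted p was 0.0594, as against 0.0611 or 0.0638 without DMSO library 1 or 3.

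Alpha-2-delta and beta subunits carry calcium channels to the membrane and tune them. CACNB1 had 291, 276 and 334 normalized counts with both drugs, 632, 538 and 724 with GSK126, 406, 394 and 388 with lapatinib, and 940, 751 and 742 with DMSO. Every lapatinib-treated library was below every library without lapatinib. Lapatinib minus DMSO was -1.02 ± 0.16 (limma, adjusted p = 0.000503), and both drugs minus GSK126 was -1.06 ± 0.16 (limma, adjusted p = 0.000576). CACNB3 fell with lapatinib too, at 555 ± 41.5 with lapatinib and 831 ± 178 with DMSO (SD, n = 3; limma, adjusted p = 0.0349; 0.0687 to 0.134 without any 1 lapatinib library or DMSO library 1 or 2). CACNA2D2 averaged 139 ± 65.8 with GSK126 and 42.9 ± 10.1 with DMSO (SD, n = 3; limma, adjusted p = 0.0134; 0.0568 without DMSO library 3, 0.0524 without GSK126 library 3). CACNA2D4 fell, at 3.48 ± 3.45 with GSK126 and 28.5 ± 1.37 with DMSO (SD, n = 3; limma, adjusted p = 0.014). CACNA2D3 was called nowhere.

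Voltage-gated sodium channels start the action potential. Both expressed pore genes and 1 of 3 expressed beta subunit genes rose with GSK126 against DMSO. Over all genes tested, 10.7% were called higher and 3.93% lower. SCN8A, the main channel of nodes of Ranvier, averaged 114 ± 32.4 with GSK126 and 40.6 ± 20.3 with DMSO (SD, n = 3; limma, adjusted p = 0.0304; 0.0785 to 0.115 without DMSO library 1 or GSK126 library 2 or 3). It was not called with both drugs against lapatinib or against DMSO, though its combination libraries lay above its lapatinib and DMSO libraries. SCN3B averaged 15.8 ± 5.10 with lapatinib and 5.26 ± 2.44 with DMSO (SD, n = 3; limma, adjusted p = 0.0472; 0.0504 to 0.164 without any 1 library of either group). SCN4B was called with both drugs against lapatinib only (limma, adjusted p = 0.0308), on 59.7, 21.0 and 3.85 normalized counts against 1.96, 1.06 and 1.88, and its adjusted p was 0.151 without combination library 1.

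GABA-A receptors are chloride channels opened by GABA. With GSK126, 3 of 6 expressed subunit genes rose, all of them outside the common alpha, beta and gamma classes, and none fell. The share over all genes tested was 10.7% higher and 3.93% lower. No GABA-A gene was called with lapatinib against DMSO. GABRE, the epsilon subunit, had 653, 507 and 564 normalized counts with both drugs, 304, 367 and 444 with GSK126, 220, 185 and 166 with lapatinib, and 136, 143 and 134 with DMSO. Its 4 groups did not overlap, and GSK126 minus DMSO was 1.41 ± 0.18 (limma, adjusted p = 0.000184). GABRD, the delta subunit of extrasynaptic receptors, had 4.98, 8.09 and 7.71 with both drugs, 25.2, 15.3 and 15.03 with GSK126, and 0 in all lapatinib and DMSO libraries. It was at least 16.5-fold higher with GSK126 than with DMSO against a floor of 3 reads over the group (limma, adjusted p = 0.000424). GABRD reached 10 only in the 3 GSK126 libraries, so it passed the filter through the group tested, which favours a call. GABRP, the pi subunit known from epithelia and breast, averaged 104 ± 7.29 with both drugs, 52.2 ± 9.17 with GSK126, 11.7 ± 9.90 with lapatinib and 5.30 ± 4.63 with DMSO (SD, n = 3). GSK126 minus DMSO was 3.61 ± 0.79 for GABRP (limma, adjusted p = 0.00744). GABRQ was called with both drugs against lapatinib only, at 77.0 ± 17.4 and 31.6 ± 6.12 (SD, n = 3; limma, adjusted p = 0.0338; 0.137 without combination library 1). GABRA3 was called nowhere.

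Among glutamate receptors, GRIA2 and GRIK5 were called. GRIA2 encodes the AMPA receptor subunit that keeps calcium out. It had 39.8, 30.7 and 39.5 normalized counts with both drugs, 26.3, 19.2 and 8.84 with GSK126, 116, 137 and 150 with lapatinib, and 41.7, 49.4 and 71.5 with DMSO. GSK126 libraries were the lowest, lapatinib libraries the highest, and the combination libraries lay just below the DMSO libraries, a difference that was not called (-0.52 ± 0.36; limma, adjusted p = 0.268). GSK126 minus DMSO was -1.62 ± 0.36 (limma, adjusted p = 0.00903), and lapatinib minus DMSO was 1.33 ± 0.36 (limma, adjusted p = 0.0165; 0.0556 to 0.0672 without DMSO library 1 or lapatinib library 2 or 3). GRIK5, a kainate receptor subunit, had 24.9, 40.5 and 57.8 with both drugs, 44.9, 31.4 and 29.2 with GSK126, 38.2, 29.8 and 43.2 with lapatinib, and 9.81, 20.8 and 11.7 with DMSO. All treated groups lay above DMSO. Its difference to DMSO was 1.30 ± 0.39 with GSK126 (limma, adjusted p = 0.0392; 0.0508 to 0.135 without any 1 GSK126 library or DMSO library 1 or 3) and 1.38 ± 0.39 with lapatinib (limma, adjusted p = 0.0182; 0.0582 to 0.0756 without DMSO library 1 or 3 or lapatinib library 1 or 3). GRIN2D, the only NMDA receptor gene expressed, and GRIK4 were called nowhere. GRIN2D averaged 1207 ± 50.3 with both drugs, 1574 ± 338 with GSK126, 1245 ± 162 with lapatinib and 1137 ± 165 with DMSO (SD, n = 3).

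Nicotinic receptors are cation channels opened by acetylcholine. CHRNA5, a subunit that tunes receptors built from other subunits, gave the smallest adjusted p with lapatinib. It had 142, 137 and 149 normalized counts with both drugs, 374, 532 and 481 with GSK126, 155, 165 and 166 with lapatinib, and 570, 610 and 713 with DMSO. All 6 lapatinib-treated libraries were below all 6 others. The GSK126 libraries also lay below the DMSO libraries, and the combination libraries below the lapatinib libraries, but neither difference was called. Lapatinib minus DMSO was -1.95 ± 0.17 (limma, adjusted p = 4.26e-06) and both drugs minus GSK126 -1.67 ± 0.17 (limma, adjusted p = 2.41e-05). CHRNB2, a subunit of the main brain receptors, had 69.7, 47.7 and 52.0 with both drugs, 21.9, 50.6 and 50.4 with GSK126, 41.1, 35.1 and 21.6 with lapatinib, and 3.68, 12.8 and 13.9 with DMSO. Each treated group lay above DMSO. The difference to DMSO was 1.99 ± 0.49 with GSK126 (limma, adjusted p = 0.0146; 0.0508 without DMSO library 1, 0.0516 without GSK126 library 3) and 1.72 ± 0.49 with lapatinib (limma, adjusted p = 0.0193; 0.0655 to 0.0801 without DMSO library 1 or lapatinib library 1 or 2). CHRNA7, whose gene is partly duplicated in the genome, was called with both drugs against lapatinib only (limma, adjusted p = 0.0104), at least 9.84-fold higher against a floor of 3 reads. CHRNA10, CHRNB1 and CHRNE were called nowhere.

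Whether the counting used strand is not given in the sources used here. By GENCODE 29, among the called genes, exons of CHRNA5, CACNA1D, SCN8A, CACNA1C, KCNG1, CACNB1, CACNA2D2, CHRNB2, KCNIP2, KCNMA1 and CACNG4 overlap exons of a gene on the opposite strand over 229 bases or more, so reads of the partner may be included.

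With lapatinib, 14 of the 65 expressed channel genes rose and 8 fell against DMSO (limma, adjusted p under 0.05), which is 21.5% and 12.3%. The background over all genes was 13.7% higher and 14.3% lower, and the median log2 difference was 0.22 over the channel genes and 0.04 over all genes. Among the 46 channel genes at 10 or more in a DMSO library, 10 rose and 8 fell, or 21.7% and 17.4%, against 13.6% and 15.1% of all such genes. The count of 22 calls dropped to between 11 and 14 without any 1 lapatinib library, and to 13 without DMSO library 1 or 3. Calls over all genes dropped from 3973 to between 2546 and 2640, and to 2846 and 2858, in these settings.

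**Figure D3:**
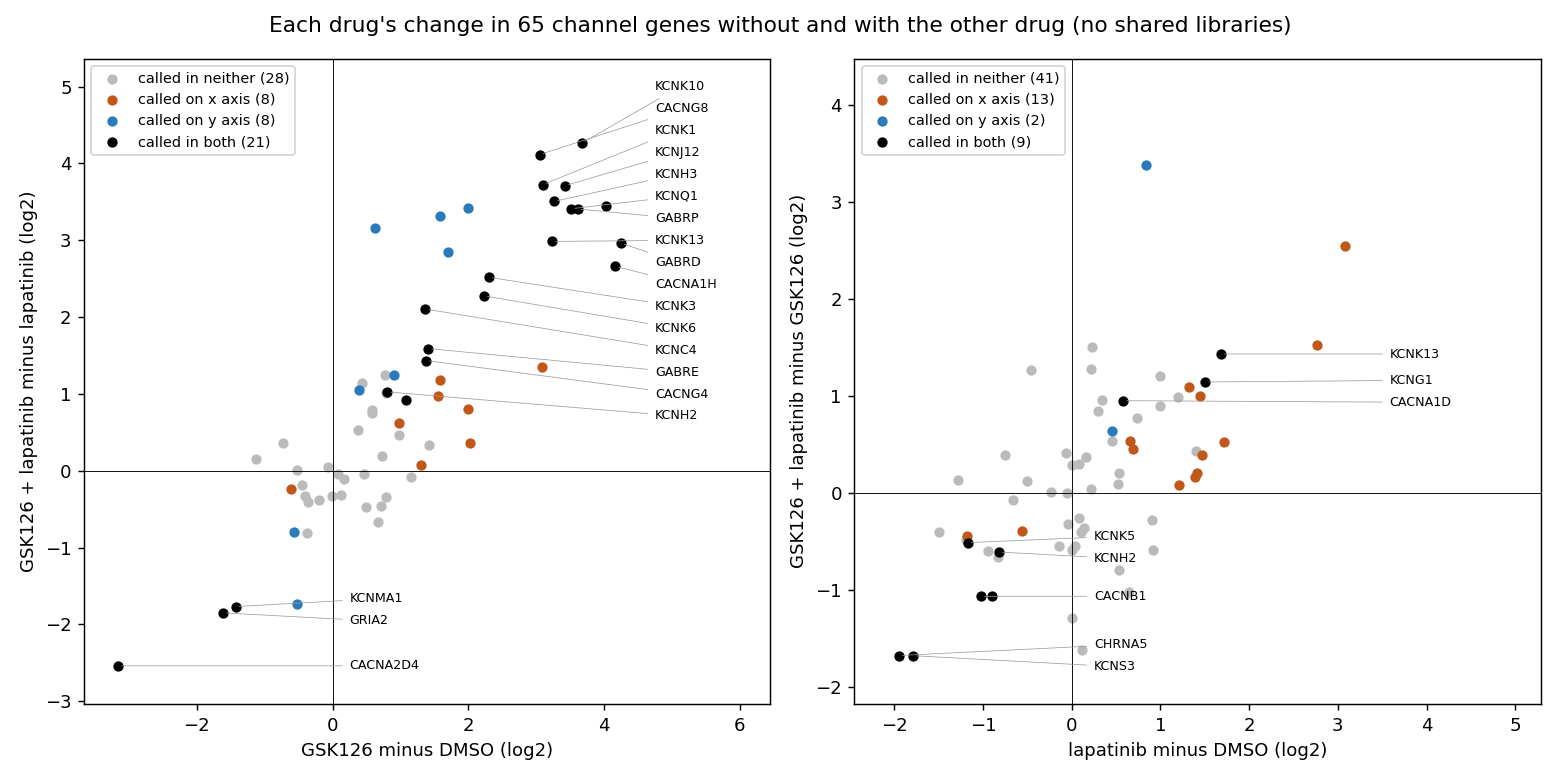
Each drug's log2 difference without the other drug (x axis) and with it (y axis) for the 65 expressed channel genes. Left, GSK126 minus DMSO against GSK126 + lapatinib minus lapatinib, with 21 genes called on both axes; right, lapatinib minus DMSO against GSK126 + lapatinib minus GSK126, with 9 called on both. Most genes called on both axes are labelled.

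The effect of each drug was measured again on top of the other drug, in libraries that the first comparison did not use. The spread was still estimated once, from all 12 libraries. With both drugs against lapatinib, 24 channel genes rose and 5 fell (36.9% and 7.69%), over a background of 11.5% and 6.35%. All 25 genes that rose with GSK126 against DMSO had a positive difference there, and 18 were called. All 4 that fell were negative there, and 3 were called. Of the 25, 11 were under 10 in every DMSO library and passed the filter through treated groups. The same agreement was not counted over all genes, so it is not shown to be particular to channel genes. Without combination library 1, 18 rose and 4 fell in that comparison, among libraries that all share 1 spike-in composition. Calls over all genes went from 2537 to 1795.

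With both drugs against GSK126, 5 channel genes rose and 6 fell (7.69% and 9.23%), over a background of 8.48% and 9.71%. The shares lay close to the background. All 14 genes that rose with lapatinib against DMSO were positive there, with 3 called (KCNG1, KCNK13 and CACNA1D). All 8 that fell were negative, with 6 called (among them CHRNA5, KCNS3, KCNK5, CACNB1 and KCNH2). Here too the agreement was not counted over all genes. Scaling to total counts gave 7 higher and 3 lower. Without combination library 1, 2 or 3 the count was 7, 6 and 6, and calls over all genes went from 2579 to 1496, 1359 and 1919.

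Against DMSO, 27 channel genes rose and 5 fell with both drugs (41.5% and 7.69%), over a background of 22% and 20.1%, or 42.1% in either direction. Among the 46 channel genes at 10 or more in a DMSO library, 12 rose and 5 fell (26.1% and 10.9%), against 19.3% and 21.4% of all such genes. Without combination library 1, 21 rose and 5 fell, and calls over all genes went from 5970 to 4524. The median log2 difference was 0.95 over the 65 channel genes and 0.06 over all genes. Over the 46 it was 0.31, against 0.0016 over all genes with that DMSO level. Scaling to total counts moved the median of all genes by 0.25 there, by 0.16 for lapatinib against DMSO, by 0.15 for both drugs against GSK126 and by 0.10 for GSK126 against DMSO.

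The interaction asks whether the combination departs from the sum of the drugs' separate log2 differences. No channel gene was called (limma, adjusted p under 0.05), and the background was 0.0212% of all genes, 0.0141% higher and 0.00705% lower. At an unadjusted p under 0.05, 8 of the 65 passed. The share of all genes at that level was not counted, so these 8 cannot be set against a background. On the recovered reads edgeR and DESeq2 each called 0 channel genes, where they called 3 and 115 over all genes. Genes called with each drug alone, in comparisons that share the DMSO libraries, included KCNG1, KCNK13, GRIK5 and CHRNB2 higher with both, KCNC4 and KCNH2 higher with GSK126 and lower with lapatinib, and GRIA2 and CACNA1D the reverse.

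Cell type markers were measured beside these genes. Of the 9 luminal breast markers that passed the filter, 3 fell with GSK126 against DMSO (EPCAM, SPDEF and TFAP2A) and none rose, with a median log2 difference of -0.46. With both drugs against lapatinib, 5 of the 9 fell (ERBB2, GATA3, KRT19, SPDEF and TFAP2A) and none rose, with a median of -0.79. With lapatinib against DMSO 2 rose and 1 fell. Of 10 neuronal markers in the table, 4 passed the filter (SYP, SYT1, MAP2 and TUBB3). Their list summed to 605 to 839 normalized counts in the combination libraries, 870 to 1233 with GSK126, 437 to 511 with lapatinib and 350 to 395 with DMSO. TUBB3, a neuronal tubulin, had 828, 670 and 943 of these with GSK126 and 152, 189 and 204 with DMSO. It was the only 1 of the 4 called with GSK126. SYT1 had 164, 88.2 and 129 with GSK126 and 154, 97.8 and 118.5 with DMSO. With lapatinib against DMSO the directions were opposite: TUBB3 fell, and SYP, SYT1 and MAP2 rose. STMN2, ELAVL4 and DCX, which mark neurons more narrowly, were at 0 in every GSK126 and DMSO library, and had 7.47, 8.71 and 19.9 in combination library 1. NEFL, a neurofilament gene that did not pass the filter, had 6.57, 3.07 and 3.54 with GSK126 and 0 in every DMSO library. The 8 muscle markers summed to 152 to 236 with GSK126 and 83.3 to 95.9 with DMSO. Of the 5 fibroblast markers 2 passed the filter, and their list summed to 130 to 240 with GSK126 and 244 to 381 with DMSO. None of 5 neuroendocrine markers passed. The part of these markers in the channel results was not tested.

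The 116 silent channel genes had few reads outside 1 library. Combination library 1 held a read in all 116 of them (100%), 1228 reads in total. In the other 11 libraries 20 to 44 of the 116 had a read (17.2% to 37.9%), with 59 to 217 reads in total. It was the highest library for 101 of the 116, and 28 had reads there and in no other library. Their values there ran over 1.25 to 53.5 normalized counts, with a median of 9.96. No silent gene was at 0 in all 12 libraries. Over the other 11 libraries 53 had at most 3 reads, and all 53 had a read in combination library 1. The wide detection there was not limited to channel genes. Of all 22170 genes, 21669 were detected in combination library 1, against 15059 to 17338 in each of the others. Silent genes outside the channel families were not counted in these ways. The pattern is therefore not shown to be particular to channel genes.

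**Figure D4:**
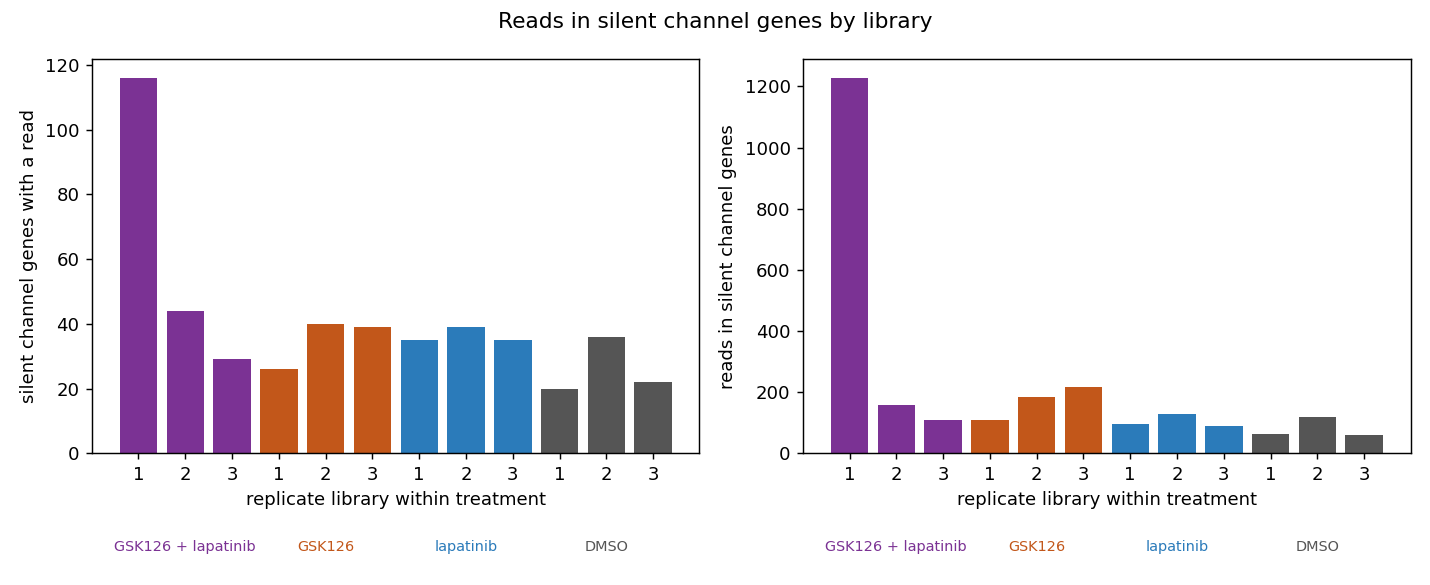
The 116 silent channel genes by library. Left, silent genes with at least 1 read; right, their summed reads, as bars from 0 for each of the 12 libraries grouped by treatment. Combination library 1 holds a read in all 116 and 1228 reads, while the other 11 libraries hold 59 to 217 reads.

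GRIN2A, an NMDA receptor subunit gene, had 53.5 normalized counts in combination library 1 and at most 3.07 elsewhere. GABRA4 had 32.4 and SCN7A 38.6 there, and both were at 0 in the other 11 libraries. Of the 116, 57 reached 10 in no library, 47 reached it only in combination library 1, and 12 reached it in another library. KCND1, a Shal-type potassium channel gene, had 22.5, 16.0 and 4.69 with lapatinib and 6.13, 6.92 and 0 with DMSO. The silent genes entered the test only when no filter was applied, over 22170 genes. Of all those genes, 1822 were called with GSK126, 3396 with lapatinib and 5920 with both drugs, each against DMSO. Then 1 of the 116 was higher with GSK126 than with DMSO, 1 was lower with lapatinib than with DMSO, and 3 were higher with both drugs than with DMSO. The first was KCNF1, a modifier subunit gene named after its values were seen, with 6.57, 5.37 and 12.4 with GSK126 and 0, 0.988 and 0 with DMSO (limma, adjusted p = 0.0093). Values this low rest on few reads.

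Channel genes of other families, which the symbol rule does not take, were followed from a list of 122, of which 113 were in the table and 62 passed the filter. With GSK126 against DMSO, 12 of the 62 rose and none fell (ANO1, ASIC1, CLIC6, LRRC8C, MCOLN2, MCOLN3, P2RX2, PIEZO1, PKD2, SCNN1B, SCNN1G and TRPM4). Lapatinib against DMSO gave 15 higher and 2 lower, and both drugs against DMSO 20 higher and 4 lower. The background over all genes was 10.7% higher and 3.93% lower with GSK126, 13.7% and 14.3% with lapatinib, and 22% and 20.1% with both drugs. The median log2 difference was 0.22 with GSK126 and 0.26 with lapatinib. SCNN1B, a subunit of the epithelial sodium channel, had 151, 119 and 143 normalized counts with both drugs, 72.3, 29.1 and 51.3 with GSK126, 40.1, 39.4 and 30.0 with lapatinib, and 1.23, 4.94 and 7.47 with DMSO. All treated libraries lay above all DMSO libraries, and its difference to DMSO was 3.34 ± 0.47 with GSK126 (limma, adjusted p = 0.000304) and 2.95 ± 0.47 with lapatinib (limma, adjusted p = 0.000562).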

How the data were processed

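Messenger RNA of SKBR3 cells was measured in 12 libraries, with RNeasy Plus Mini extraction, Kapa mRNA HyperPrep libraries and 75 bp single-end reads, per the labels' protocols. Reads were aligned with STAR to hg19 and normalized with DESeq2, per the submitters' processing notes, which name no versions. The counter, annotation and strand setting are not given in the sources used here. The authors deposited a signal per gene and library: read counts divided by a size factor. All values (100%, within 0.01) were whole multiples of the smallest step of their library, so the reads were recovered. Libraries held 17.7 to 30.3 M reads on genes, and intervals and floors cover counting error only.

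Groups came from the labels. The test was limma 3.58.1 (R 4.3.3). It was run on log2(value + 1) with group means, all 12 libraries, a trended prior and Benjamini-Hochberg adjustment over the 14179 genes at 10 or more in at least 3 libraries, in 6 comparisons. A call is an adjusted p under 0.05, and log2 differences of low genes are understated by the added 1. The fit was tested on simulated data. Alternatives were other pseudocounts, filters and scalings, a constant prior, only the groups compared, a replicate block, each library left out, edgeR 4.0.16 and DESeq2 1.42.0 on recovered reads (DESeq2 with its own filter), and the spike-in composition as a term, which was chosen after seeing the data. A ratio against a group with 0 reads uses a floor of 3 reads over that group. Promoters came from RefSeq GRCh38.p14, where 128 of the 181 symbols had one, and no coordinates of hg19 are printed. Opposite-strand overlaps came from GENCODE 29.

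Channel genes called in any comparison are named, except for a few genes whose single results are not reported here. Values in every library are given for those among the 15 with the smallest adjusted p with each drug against DMSO. KCNK17, SCN4B, CACNG8, KCNMB3 and SCNN1B are also shown by library, and the 250 bases of 6 genes printed, chosen after their values were seen. Uncalled and silent genes are named from the 4 with the highest mean in their family, apart from KCNF1. The members and lists were chosen with earlier results of these data known.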

Additional observations from a re-analysis of the deposited data

How the results depend on the processing

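The number of channel genes called held within 1.5 times its main value under most alternatives, and no named result changed direction. For GSK126 against DMSO it was 29, and it fell to 17 with only the groups compared and to 7 with the composition term. Calls over all genes fell from 2069 to 869 and 446 there. With 1 library left out the channel count ran over 23 to 32. For lapatinib against DMSO it was 22, with 11 to 27 when 1 library was left out. For both drugs against lapatinib it was 29, with 18 under a filter of 50 and 21 to 33 with 1 library left out. For both drugs against GSK126 it was 11, with 7 with only the groups compared, 5 with the composition term and 6 to 16 with 1 library left out. For both drugs against DMSO it was 32, with 19 under a filter of 50 and 26 to 34 with 1 library left out. The filter of 50 tests fewer channel genes (39 of the 65), and for the other changes the cause was not tested. For the interaction it was 0 in every alternative run, with 0 to 0 when 1 library was left out. Over the 123 calls of single genes, 2609 of the recomputed values kept direction and call and 277 kept direction and lost the call, and 68 calls held in every alternative. Deviations of same-numbered libraries of different groups had r -0.33 to 0.35 over 18 pairs, 4 above 0.1. Differently numbered ones had r -0.48 to 0.44 over 36 pairs, 13 above 0.1. With 3 libraries per group this check cannot exclude a pairing by number. With the replicate block the counts were 26 for GSK126, 19 for lapatinib, 27, 9 and 30 for both drugs against lapatinib, GSK126 and DMSO, and 0 for the interaction, all within 1.5 times the main counts. Depth limits the genes under about 10 normalized counts, where 1 read is a large part of the value.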
